A study of Rattus norvegicus with 12 samples.

Results

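Bst2 (tetherin), Ifitm1, Ifitm2 and Ifitm3, genes for membrane proteins that block viruses at the cell surface or in endosomes, were followed in rat hepatocytes given interferon alpha. They were chosen by name, as all probe sets that the platform annotation assigns to any of the 4 genes. Each gene had 1 probe set, so the data hold 4 probe sets of the 31042 tested, and 4 of the 14217 genes named. The cells were hepatocytes taken from Wistar rats by collagenase digestion, enriched on Percoll and treated the day after isolation. The 4 groups were interferon alpha for 3 h, control for 3 h, interferon alpha for 6 h and control for 6 h, where interferon alpha means 250 U/ml of the rat protein and control cells were cultured untreated. Each group had 3 arrays labelled as biological replicates 1 to 3. The labels give no age or sex and do not say whether a replicate came from 1 animal or a pool.

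Interferon alpha binds a receptor of the subunits Ifnar1 and Ifnar2, which activates a transcription factor that contains Stat2 and Irf9. This factor binds the interferon-stimulated response element (ISRE) of its target genes, and the family studied here is known as part of that response in many cell types. Tetherin is a membrane protein anchored at both ends, which holds newly formed enveloped viruses on the cell that made them. The Ifitm proteins sit in the plasma membrane (Ifitm1) or largely in endosomes (Ifitm2 and Ifitm3) and hinder the fusion of a virus with the membrane, roles known mainly from human and mouse cells.

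In the RefSeq annotation of assembly GRCr8, Bst2 lies on chromosome 16 from 18250593 to 18254967. Ifitm2 (205481168 to 205482348), Ifitm1 (205496757 to 205498796) and Ifitm3 (205540649 to 205541758) lie together on chromosome 1. Promoter windows of 300 bases, 250 before and 50 after the annotated start, were at hand for Ifitm3, Bst2 and Ifitm2. They are shown because the 3 share a motif of the interferon response. Capitals mark matches to the ISRE core GAAANNGAAA, with TTTCNNTTTC as its other strand, and to the gamma-activated site (GAS) TTCNNNGAA, which reads the same on both strands. All 3 windows lie on the minus strand, at chr1:205541709-205542008 for Ifitm3, chr16:18254918-18255217 for Bst2 and chr1:205482299-205482598 for Ifitm2, and read 5′ to 3′ with the gene.
Ifitm3: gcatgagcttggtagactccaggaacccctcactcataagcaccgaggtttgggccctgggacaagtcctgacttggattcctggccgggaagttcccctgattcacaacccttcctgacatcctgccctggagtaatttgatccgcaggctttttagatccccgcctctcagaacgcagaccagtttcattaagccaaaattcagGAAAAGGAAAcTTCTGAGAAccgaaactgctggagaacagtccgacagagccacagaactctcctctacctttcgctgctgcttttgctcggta
Bst2: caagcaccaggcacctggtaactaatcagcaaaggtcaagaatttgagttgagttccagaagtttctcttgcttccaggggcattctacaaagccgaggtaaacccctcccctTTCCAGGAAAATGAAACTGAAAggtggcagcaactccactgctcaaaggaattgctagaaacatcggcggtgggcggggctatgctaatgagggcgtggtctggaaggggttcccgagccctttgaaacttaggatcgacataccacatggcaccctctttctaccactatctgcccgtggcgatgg
Ifitm2: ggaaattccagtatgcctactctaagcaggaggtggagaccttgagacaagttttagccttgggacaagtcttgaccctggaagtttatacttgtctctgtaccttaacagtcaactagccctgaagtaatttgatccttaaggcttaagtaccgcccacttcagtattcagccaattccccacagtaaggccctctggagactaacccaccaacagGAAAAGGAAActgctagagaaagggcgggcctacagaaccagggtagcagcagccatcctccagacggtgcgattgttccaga
The Ifitm3 window held 1 ISRE core, GAAAAGGAAA, with its first base at -44 from the start, and 1 GAS match at -33. The Ifitm2 window held the same 10 letters, GAAAAGGAAA, at -33, and no GAS match. The Bst2 window held 2 overlapping ISRE cores, GAAAATGAAA and GAAACTGAAA, at -131 and -125, and a GAS match at -137 that overlaps the first of them. Of 33469 windows of this length, 3.92% held an ISRE core and 8.87% a GAS match. A match is a run of letters and says nothing about binding. Among genes with a window and a probe set, 7.69% of the 377 with an ISRE core were called at 6 h by limma, against 0.335% of the 11356 without one. Ifitm3, Bst2 and Ifitm2 were themselves not called by it.

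**Figure D1:**
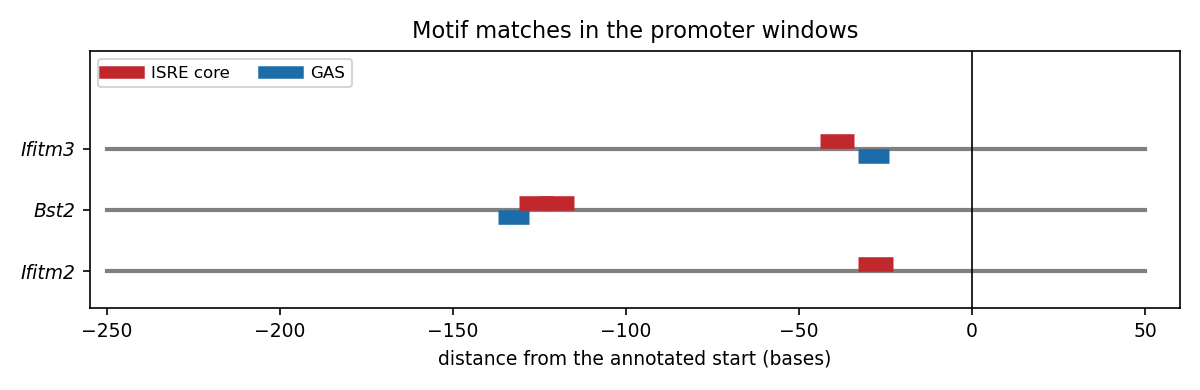
Positions of motif matches in the promoter windows of Ifitm3, Bst2 and Ifitm2, as distance in bases from the annotated start (vertical line); each grey line is a window of 300 bases. Red bars are ISRE cores and blue bars GAS matches: those of Ifitm3 and Ifitm2 begin at -44 or nearer to the start, those of Bst2 at -137 to -125.

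The values are log2 RMA levels, and array medians ran from 5.16 to 5.21 and lower quartiles from 3.84 to 3.93. Pairs of arrays correlated at 0.979 to 0.997. The 5 measured hepatocyte markers averaged 13.49 to 13.73 on the 12 arrays, near the top of the measured range. Of 10 Kupffer cell and macrophage markers 8 were measured, and one, Adgre1, lay below the lower quartile on all arrays. A probe set's brightness also depends on its probes. Bright and dim below thus describe signal, and signals of different genes are not read as amounts of RNA. In these bulk samples fewer cells of a type and less RNA per cell cannot be told apart. The probe sequences were not used here, so whether probes of one Ifitm gene also bind RNA of another was not tested.

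Ifitm3 was the one member called in any fit, and its level was higher after interferon alpha in every replicate at both times. Of all probe sets, 14.4% were higher in all 3 replicates at 3 h and 13.2% at 6 h. At 6 h it measured 12.89, 12.89 and 12.74 log2 in interferon alpha replicates 1 to 3, against 12.56, 12.03 and 11.73 in control replicates 1 to 3. The groups did not overlap, with interferon alpha the higher, which held for 4.29% of all probe sets at this time. The means were 12.84 ± 0.09 with interferon alpha and 12.11 ± 0.42 in control (SD, n = 3 each), a difference of 0.73 ± 0.22 log2 (SE of the limma fit) or 1.66-fold, with a 95% interval from 1.18-fold to 2.33-fold. In the limma fit across all probe sets this did not pass (adjusted p = 0.611, unadjusted 0.00718). With the replicate number as a block, which compares arrays within each number, Ifitm3 rose (0.73 ± 0.12 log2, adjusted p = 0.0119), and likewise by limma with a block within each time (adjusted p = 0.0407). The replicate numbers were taken to pair the arrays, since same-numbered arrays deviated together. The labels state no pairing and do not say what same-numbered arrays share, and the blocked calls rest on this choice.

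Without the block 0 of the 4 genes were called at 6 h by limma, where 0.387% of all probe sets were called, and 1 of them, Ifitm3, had an unadjusted p under 0.05, as did 3.69% of all probe sets. With the block 1 of the 4 was called, where 1.1% of all probe sets were (1.1% also with a block within each time), and 2 of them, Ifitm3 and Ifitm2, had an unadjusted p under 0.05, as did 8.18% of all probe sets. The blocked call of Ifitm3 was lost when any 6 h array of replicate 2 or 3 was left out (adjusted p from 0.0729 to 0.0947), and without replicate 2 or replicate 3 in all groups (0.357 and 0.283). Without replicate 1 it was 0.93 log2 with an adjusted p of 0.00154.

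The size of the Ifitm3 difference varied between replicates. At 6 h it was 0.33 log2 in replicate 1, 0.86 in replicate 2 and 1.00 in replicate 3, that is 1.26-fold, 1.82-fold and 2.00-fold. The controls differed among themselves by 0.83 log2 at 6 h, while the treated arrays covered 0.16 log2. The smallest difference belonged to replicate 1, which had the highest control level of Ifitm3. With the level at 12.89 at most and the brightest probe sets of the arrays at 14.61 to 14.71, Ifitm3 was not at the top of the measured range, but whether so bright a probe set shows changes in full was not tested. Among the 480 probe sets with a mean level of at least 12 log2, Ifitm3 had the fourth largest rise at 6 h, and 90% of these 480 changes lay between -0.10 and 0.07 log2.

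**Figure D2:**
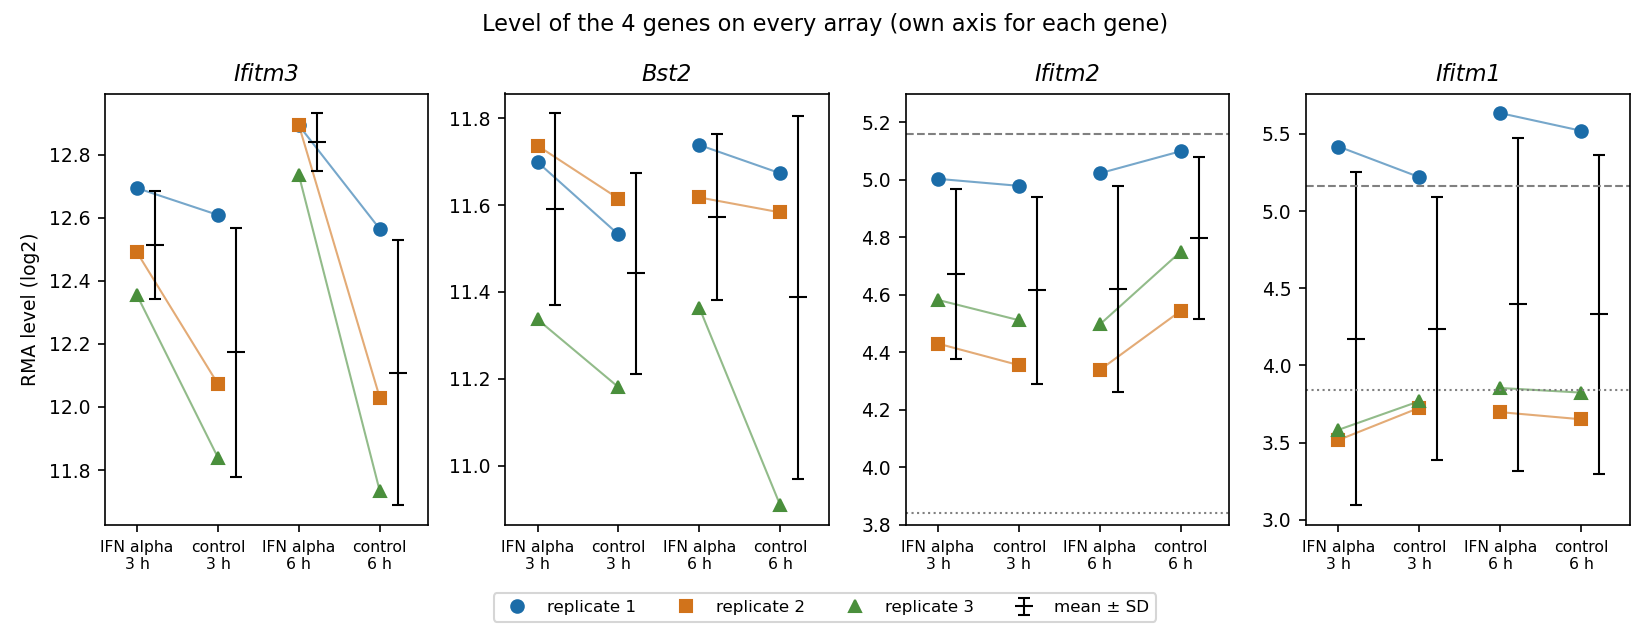
RMA level (log2) of Ifitm3, Bst2, Ifitm2 and Ifitm1 on each of the 12 arrays, with symbols for replicates 1 to 3, lines joining the treated and control array of a number and time, and black marks for the mean ± SD; each gene has its own axis. Dotted and dashed lines are the lowest lower quartile (3.84) and lowest median (5.16) of the arrays. Ifitm3 with interferon alpha at 6 h sits above all controls, replicate 3 lies lowest for Bst2, and replicate 1 highest for Ifitm1.

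At 3 h Ifitm3 measured 12.69, 12.49 and 12.35 log2 in interferon alpha replicates 1 to 3, against 12.61, 12.07 and 11.84 in control replicates 1 to 3. The groups overlapped, since the control of replicate 1 lay above 2 of the treated arrays. The difference was 0.34 ± 0.22 log2 without the block (adjusted p = 1.00 by limma) and 0.34 ± 0.12 with it (unadjusted p = 0.0178, adjusted p = 0.644), and it was 0.09, 0.42 and 0.51 in replicates 1 to 3. By limma 0 of the 4 genes were called at 3 h with or without the block, where 0.0966% and 0.00644% of all probe sets were called. At an unadjusted p under 0.05 the counts were 1 with and 0 without the block, against 6.75% and 2.95% of all probe sets.

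From 3 h to 6 h the Ifitm3 response was 0.39 ± 0.31 log2 larger, which did not pass (adjusted p = 1.00 by limma, with or without the block). By limma 0 of the 4 genes, and 0% of all probe sets, were called for this difference between times, while 2 of the 4 with the block and 0 without it had an unadjusted p under 0.05, against 4.72% and 2.17% of all probe sets. The 2 went opposite ways, Ifitm3 at 0.39 log2 and Ifitm2 at -0.24. The order of the Ifitm3 group means was interferon alpha 6 h, interferon alpha 3 h, control 3 h and control 6 h. The first of these lay above the second on all arrays, by 0.33 log2, more than their SDs of 0.09 and 0.17. A test of that pair, added after the values were seen, did not pass (adjusted p = 0.712 without and 0.130 with the block). The other neighbours differed by less than the larger of their SDs, which include the differences between replicate numbers, though within every number the order was the same. Averaged over both times, Ifitm3 was 0.53 ± 0.16 log2 higher with interferon alpha, 1.45-fold, which passed with the block (adjusted p = 0.00912) but not in the fit lacking it (0.532). The blocked call was lost without replicate 2 (adjusted p = 0.353) or replicate 3 (0.303). Of the 4 genes 0 were called for that average without the block and 1 with it, where 0.435% and 1.1% of all probe sets were called (1.29% with a block within each time), and 1 without and 2 with the block had an unadjusted p under 0.05, against 4.48% and 10.8% of all probe sets. The average contains both times and is no independent evidence beside the 6 h value.

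Bst2 was bright on every array and differed little between the groups. At 6 h it measured 11.74, 11.62 and 11.36 log2 in interferon alpha replicates 1 to 3, against 11.67, 11.58 and 10.91 in control replicates 1 to 3. At 3 h it measured 11.70, 11.74 and 11.34 in interferon alpha replicates 1 to 3, against 11.53, 11.62 and 11.18 in control replicates 1 to 3. The treated array was the higher of the pair in all 3 replicates at both times, as for 14.4% of all probe sets at 3 h and 13.2% at 6 h, but the groups overlapped. The difference was 0.15 ± 0.21 log2 at 3 h and 0.18 ± 0.21 at 6 h (adjusted p = 1.00 for both by limma), and with the block 0.15 ± 0.09 and 0.18 ± 0.09 (adjusted p = 0.812 and 0.659).

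The 95% interval of the Bst2 difference at 6 h ran from 0.831-fold to 1.55-fold, and with the block from -0.02 to 0.39 log2. Replicate 3 gave 0.46 log2 of the 6 h difference, against 0.07 and 0.03 in replicates 1 and 2. Averaged over both times the difference was 0.17 ± 0.14 log2 (adjusted p = 1.00, and 0.403 with the block, unadjusted 0.0284). The 4 arrays of replicate 3 lay lowest, at 10.91 to 11.36 log2, below the 8 arrays of replicates 1 and 2 at 11.53 to 11.74. The 4 group means ran from 11.59 for interferon alpha at 3 h over interferon alpha at 6 h and control at 3 h to 11.39 for control at 6 h, and no neighbours in this order differed by more than the larger SD.

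Ifitm2 was dim, below the array median on all 12 arrays. At 6 h it measured 5.02, 4.34 and 4.50 log2 in interferon alpha replicates 1 to 3, against 5.10, 4.54 and 4.75 in control replicates 1 to 3. At 3 h it measured 5.00, 4.43 and 4.58 in interferon alpha replicates 1 to 3, against 4.98, 4.36 and 4.51 in control replicates 1 to 3. The treated array was lower in all 3 pairs at 6 h, as for 19.0% of all probe sets, and higher in all 3 pairs at 3 h, as for 14.4%. The difference at 6 h was -0.18 ± 0.23 log2 (adjusted p = 1.00 by limma), and -0.18 ± 0.07 with the block (unadjusted p = 0.0221, adjusted p = 0.483). At 3 h it was 0.06 ± 0.23 (adjusted p = 1.00, and 0.907 with the block). Ifitm2 group means ran from 4.80 in control at 6 h to 4.62 in control at 3 h, with both treated groups between, and no neighbours differed by more than the larger SD. Within replicate numbers, interferon alpha at 3 h lay below control at 6 h in all 3, by 0.10 to 0.17 log2, a pair that differs in both treatment and time and was not tested.

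Ifitm1 had a level above the array median in replicate 1 alone. At 6 h it measured 5.63, 3.70 and 3.85 log2 in interferon alpha replicates 1 to 3, against 5.52, 3.65 and 3.82 in control replicates 1 to 3. At 3 h it measured 5.42, 3.52 and 3.58 in interferon alpha replicates 1 to 3, against 5.22, 3.73 and 3.77 in control replicates 1 to 3. The 8 arrays of replicates 2 and 3 lay below the lower quartile of their array, and how much of so dim a signal is background was not tested. Ifitm1 was higher on the treated array in all 3 pairs at 6 h, as were 13.2% of all probe sets, and in 1 of 3 at 3 h. The difference at 6 h was 0.06 ± 0.71 log2 (adjusted p = 1.00 by limma) and 0.06 ± 0.09 with the block (0.905), with a blocked 95% interval from -0.14 to 0.27. At 3 h it was -0.07 ± 0.71 and, with the block, -0.07 ± 0.09 (adjusted p = 0.927). No neighbours in the order of the 4 group means, 4.40 in interferon alpha at 6 h, 4.33 in control at 6 h, 4.24 in control at 3 h and 4.17 in interferon alpha at 3 h, differed by more than the larger SD.

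**Figure D3:**
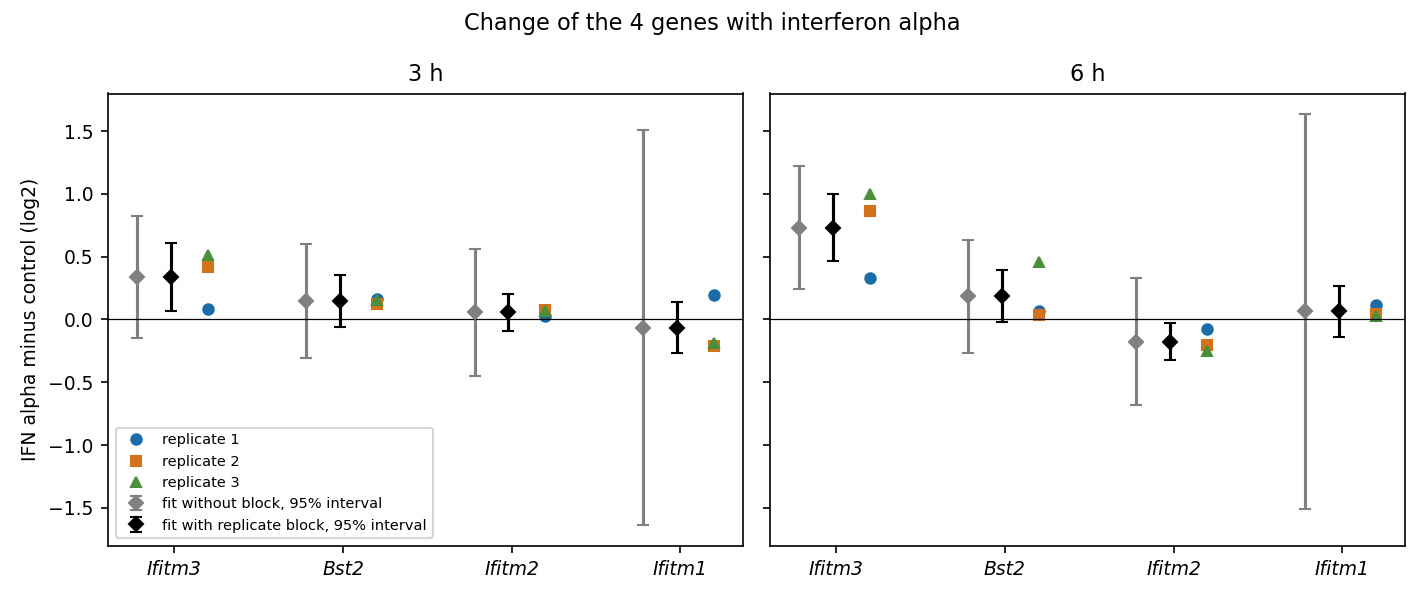
Interferon alpha minus control (log2) at 3 h and 6 h for Ifitm3, Bst2, Ifitm2 and Ifitm1; grey and black diamonds are the limma estimates without and with the replicate block, bars their 95% intervals, and the small symbols the differences in replicates 1 to 3. At 6 h the Ifitm3 intervals lie above 0, and those of Bst2 and Ifitm1 include 0 in both fits. The Ifitm2 interval at 6 h includes 0 without the block and lies below 0 with it. The intervals are not adjusted for the number of probe sets tested.

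Ifitm1 and Ifitm2 moved with the replicate number. The lowest of the 4 replicate 1 arrays exceeded the highest of the other 8 by 1.37 log2 for Ifitm1 and by 0.23 for Ifitm2. A gap over 1 log2 of this kind in replicate 1 was found in 44 probe sets (0.142%). Kupffer cell and macrophage markers moved the same way: 6 of the 8 measured ones, among them Clec4f, Cd163, Cd5l and C1qa, were higher on all replicate 1 arrays than on all others, as were 2.09% of all probe sets. Their mean level was 6.61 to 6.75 log2 in replicate 1, 5.36 to 5.53 in replicate 2 and 5.79 to 5.96 in replicate 3. Of 6 measured liver endothelial markers, Pecam1 and Lyve1 did so as well, and among 8 stellate cell and 8 lymphocyte and dendritic cell markers 1 each. So did 1 of the 5 hepatocyte markers, Cyp2e1, and 0 of 4 cholangiocyte markers. The part of these cells in the Ifitm1 and Ifitm2 levels was not tested.

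Between treated and control cells no difference in this list was detected. The summed linear signal of the 8 Kupffer markers ran from 3406 to 4969 with interferon alpha and from 3467 to 4986 in control at 3 h, and from 3698 to 5382 with interferon alpha and from 3855 to 5407 in control at 6 h. Cd14 alone made up 86.4% to 95.1% of this sum. The sum of the other 7, taken after the values were seen, ran from 217 to 588 with interferon alpha and from 185 to 677 in control at 3 h, and from 210.0 to 652 with interferon alpha and from 191 to 631 in control at 6 h. By limma 0 of the 8 were called at 3 h or at 6 h, with or without the block.

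**Figure D4:**
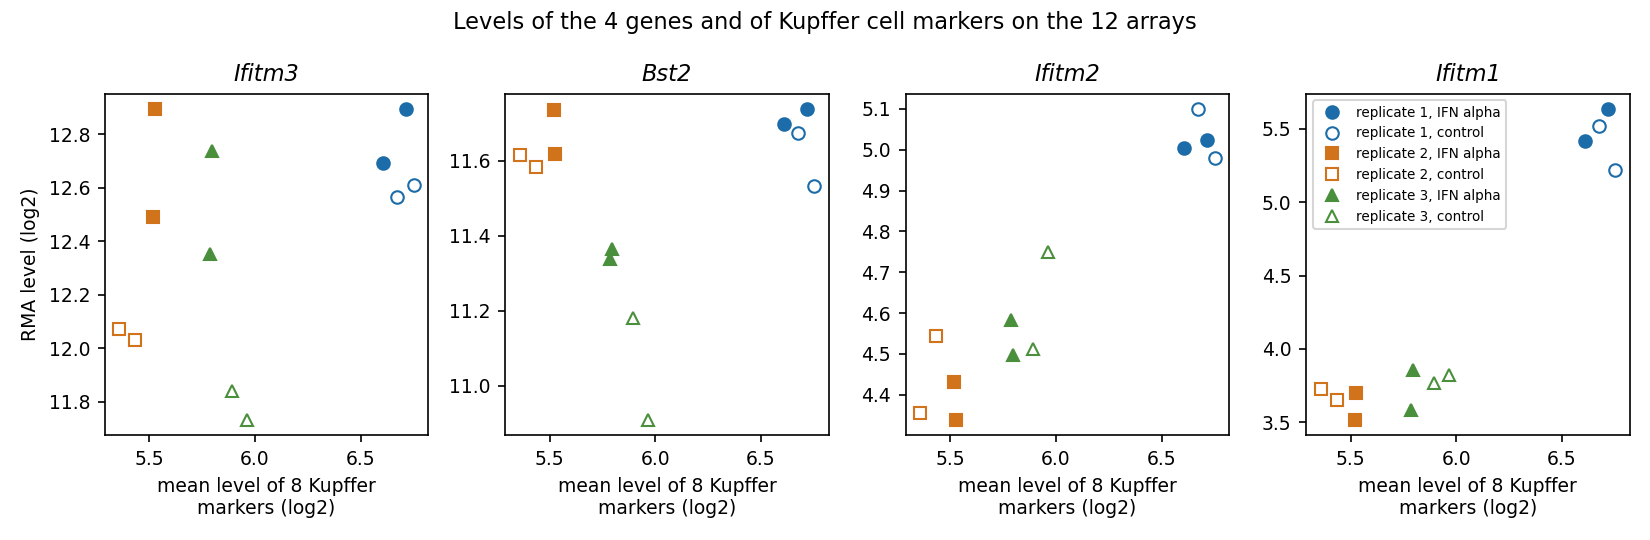
Level (log2) of Ifitm3, Bst2, Ifitm2 and Ifitm1 against the mean level (log2) of 8 Kupffer cell markers on the 12 arrays; filled symbols are interferon alpha, open symbols control, and shapes the replicates. Replicate 1 stands apart at marker levels of 6.61 to 6.75 and has the highest Ifitm1 and Ifitm2 levels.

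The genes most like each member over the 12 arrays differed between members. These correlations describe arrays that share replicates and treatments. Ifitm3 was most like Ifi27 (r = 0.972), an interferon-inducible gene, and Psme2 (r = 0.957) and Psme1 (r = 0.941), subunits of the proteasome activator PA28. For deviations from group means, which leave out the mean difference between treated and control, r was 0.972 for Ifi27, 0.948 for Psme2 and 0.908 for Psme1. The likeness was thus also present among arrays of the same group. At 6 h, interferon alpha minus control was 0.19 log2 for Ifi27, 0.44 for Psme2 and 0.25 for Psme1. Ifitm1 was most like RT1-A3, a rat MHC class I gene (r = 0.988), C1qb, a complement subunit made by macrophages (r = 0.987), and Lcn2, an iron-binding acute phase protein (r = 0.987). Lcn2 ranged over 6.04 log2 between arrays. For Ifitm1 and Ifitm2 the replicate 1 arrays form a cluster of their own. Ifitm2 was most like P2rx5, C1qa and Stap2 (r from 0.955 to 0.960), and Bst2 was most like the kinase gene Prkce, the proteasome subunit Psma2 and Amhr2 (r from 0.939 to 0.960). Among the members, Ifitm1 and Ifitm2 correlated at 0.927, Bst2 and Ifitm3 at 0.674, and Bst2 and Ifitm2 at 0.170.

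Other genes that act on virus entry or exit, or on the Ifitm and tetherin proteins, rose in part. Of 30 listed genes 26 were measured, and Ifitm5, Ifitm6, Ifitm7 and Gbp5 have no probe set under these names. At 6 h 7 of the 26 rose and 0 fell by limma, against 0.563% of all 14217 genes that rose, and the median change was 0.05 log2, against -0.02 over all genes. The list was chosen with earlier results of these data known, so this contrast with all genes is no test. Rsad2 (viperin), which disturbs lipid rafts and virus budding, rose by 3.14 ± 0.34 log2 and Isg15, a ubiquitin-like modifier, by 2.68 ± 0.33. Mx1 and Mx2, dynamin-like GTPases that trap incoming virus particles, rose by 4.33 ± 0.51 and 2.23 ± 0.37. Ncoa7, known to raise the acidity of endosomes in human cells, rose by 2.61 ± 0.45, and Cnp, an enzyme reported to hinder HIV assembly, by 1.52 ± 0.16. The seventh was Trim5, whose human counterpart blocks retroviral capsids, at 1.42 ± 0.23 log2, named after its value was seen.

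With the block 10 of the 26 rose at 6 h, where 1.45% of all genes rose. The 3 beyond the 7, chosen after their values were seen, were Gbp2 (3.43 log2), Lgals3bp (1.87) and Ly6e (1.28), a membrane protein that blocks coronavirus fusion (blocked adjusted p from 0.000281 to 0.0167). Genes of the list with roles in handling Ifitm3, chosen after their values were seen, did not pass: the palmitoyltransferase Zdhhc20 was at -0.05 log2, the ubiquitin ligase Nedd4 at -0.16 and the binding partner Vapa at -0.07. Ifitm10, a further family member, was at -0.04 (adjusted p = 1.00). At 3 h 0 of the 26 were called by limma, where 0.00703% of all genes rose, and with the block 2, Ncoa7 at 3.35 log2 and Rsad2 at 2.68, where 0.106% of all genes rose.

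Of 15 measured genes of the interferon receptor, its signalling and its factors, 4 rose and 0 fell at 6 h by limma. Of all genes 0.563% rose in that fit, but this list too was chosen with earlier results of these data known. The 4 were Irf7 (3.11 ± 0.36 log2), Usp18 (2.21 ± 0.35), Stat2 (1.51 ± 0.21) and Irf9 (1.20 ± 0.19). The receptor subunits Ifnar1 and Ifnar2 were at -0.12 and -0.11 log2 and did not pass. With the block 5 of the 15 rose, where 1.45% of all genes rose, Irf1 (2.22 ± 0.42 log2 in the fit without it) being the fifth. For the average over both times Irf1 also passed by limma without the block (adjusted p = 0.00590).

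**Figure D5:**
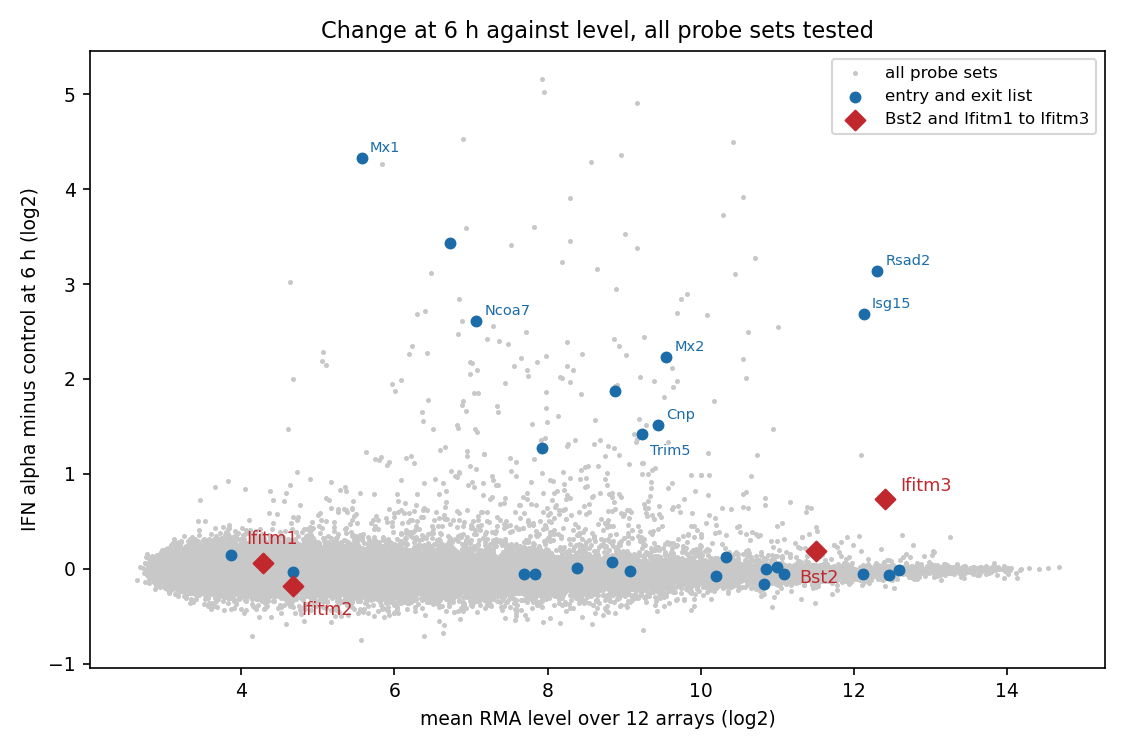
Interferon alpha minus control at 6 h (log2) against the mean RMA level (log2) for all 31042 probe sets (grey), the entry and exit list (blue, names for those called by limma) and the 4 members (red diamonds). Ifitm3 at 0.73 and Bst2 at 0.18 lie among bright probe sets, Ifitm1 at 0.06 and Ifitm2 at -0.18 among dim ones, all below the named genes of the list.

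In untreated culture, 6 h against 3 h, the members did not pass. The change was -0.06 ± 0.22 log2 for Ifitm3, -0.05 ± 0.21 for Bst2, 0.18 ± 0.23 for Ifitm2 and 0.09 ± 0.71 for Ifitm1 (adjusted p from 0.878 to 0.990 by limma). Of the 4 genes 0 were called with or without the block, where 8.15% and 0.19% of all probe sets were. By limma with the block Ifitm2 alone had an unadjusted p under 0.05, with an adjusted p of 0.132, and without the block 0 of the 4 did, against 21.9% of all probe sets with and 10.1% without the block.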

How the data were processed

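Total RNA of 12 hepatocyte cultures was measured on Affymetrix arrays from biotinylated cRNA made from 5 µg, per the labels' protocols. The authors deposited log2 values; the submitters' processing notes name RMA, affy and R 2.10.0. RMA gives arrays one distribution, so a change common to most transcripts is hidden.

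Of 31099 probe sets, 57 controls were left out and 31042 tested. Names came from the platform annotation, updated by Entrez identifier through RefSeq (GRCr8): 20826 tested probe sets had 1 symbol, 436 several, and the rest are unnamed. For a listed gene with several probe sets, the one brightest on average was used. Promoter sequences are RefSeq's, build GRCr8; Ifitm1 is named without one. No protein sequences were compared.

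Groups and replicate numbers came from the titles. All p-values are two-sided, from limma 3.58.1 in R 4.3.3 (lmFit and eBayes, 1 fit over 12 arrays, 4 groups, 8 residual degrees of freedom), adjusted by Benjamini-Hochberg over all probe sets within each of 5 comparisons, with a threshold of 0.05. The fit without the block was run on simulated data whose errors were independent between arrays. The arrays here deviate together by replicate number, and the blocked fit was not simulated, so that run does not bear on the blocked calls. As nothing says that replicates came from separate animals, p-values measure the spread between these samples. Deviations from group means of same-numbered arrays correlated at 0.651 to 0.829 over the 6 pairs of one time. Across times the 12 pairs correlated at 0.479 to 0.736, against -0.562 to -0.0747 between numbers. Since deviations within a group sum to 0, positive values within numbers bring negative ones between numbers with them. The numbers were taken to pair the arrays, though the titles state no pairing, and blocked values are given. No 2 arrays held identical values (0 pairs). With 3 arrays a group, precision is limited.

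The members, lists and tests were chosen with earlier results of these data known. Named are the members, the 3 genes most correlated with each over the arrays (symbols starting with LOC or RGD skipped), and of each list up to 6 called genes with the smallest adjusted p in any of the 5 comparisons; others are said to be chosen after their values were seen or illustrate a list. Alternatives were the block across or within times, limma-trend, robust eBayes, a filter on low values, median centring, quantile normalization, only the groups compared, and leaving out replicates or arrays.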

Additional observations from a re-analysis of the deposited data

Results flagged for a closer look

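Ifitm2 was flagged because its treated arrays were higher than their controls in all 3 replicates at 3 h and lower in all 3 at 6 h. Of all probe sets, 14.4% were higher in all 3 at 3 h and 19.0% lower in all 3 at 6 h. How many did both was not counted. The Ifitm2 differences were 0.02, 0.07 and 0.07 log2 at 3 h and -0.08, -0.21 and -0.25 at 6 h. The difference between the times was -0.24 ± 0.32 log2 and did not pass (adjusted p = 1.00 by limma; 0.980 with the replicate block, unadjusted 0.0306). All Ifitm2 values lay below the array medians. Groups of 3 arrays were not searched for single outlying samples.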

How the results depend on the processing

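The limits are 3 arrays a group, 1 probe set a gene, and dim signals for Ifitm1 and Ifitm2. Under limma-trend, robust eBayes, the filter on low values, median centring, quantile normalization and, where run, only the groups compared, no member was called in any of the 5 comparisons and no member changed direction, the same as without these settings; the filter removed Ifitm2. The replicate block, alone or within each time, raised the count of called members from 0 to 1 at 6 h and for the average over both times (Ifitm3 each time) and changed no other call of a member. Leaving out replicates or arrays, the count of called members stayed at 0 without the block, and with it ran from 0 to 1 at 6 h and for the average; these blocked fits were chosen after seeing the data. Ifitm3 at 6 h ran from 0.54 to 0.96 log2, and its smallest and largest adjusted p over all settings were 0.00154 and 1.00.

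Direction changed only where replicates or arrays were left out, for values that never passed. The ranges there, in log2, were as follows. For interferon alpha minus control, Ifitm1 ran from -0.69 to 0.43 at 3 h, from -0.56 to 0.66 at 6 h and from -0.31 to 0.30 for the average. Ifitm2 ran from -0.11 to 0.24 at 3 h and from -0.16 to 0.030 for the average, and Bst2 from -0.055 to 0.33 at 6 h. The difference between times ran from -0.20 to 0.18 for Bst2 and from -0.49 to 0.75 for Ifitm1. Untreated culture ran from -0.20 to 0.19 for Bst2, from -0.50 to 0.58 for Ifitm1 and from -0.29 to 0.15 for Ifitm3. The list of entry and exit genes had 7 called at 6 h, 6 with the mean of all probe sets of a gene and 10 with the block.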

Other observations

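Replicate 1 differed from replicates 2 and 3 in further genes, chosen after their values were seen. The lowest replicate 1 array exceeded the highest of the other 8 by 5.38 log2 for Lcn2, 3.02 for Abhd3, 2.71 for the fatty acid binding protein gene Fabp4 and 2.69 for the MHC class I gene RT1-A3. For the neutrophil-attracting chemokine gene Cxcl1 the gap was 1.71 and for the macrophage gene Cd5l 1.62. Probe sets higher on all arrays of one replicate number by any margin numbered 648 for replicate 1, 1158 for replicate 2 and 1629 for replicate 3.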
